A study of Mus musculus with 12 samples.

Results

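The genes of the G1 phase decision to divide or to leave the cell cycle were followed in a ChIP-seq study of histone H3 acetylated at lysine 14 (H3K14ac) in neural stem and progenitor cells of the mouse. The set was chosen by name, with earlier results of these data known, and holds 10 genes of the 27095 counted. They are the D cyclins Ccnd1, Ccnd2 and Ccnd3, the E cyclins Ccne1 and Ccne2, the kinases Cdk4 and Cdk6, the CDK inhibitors Cdkn1a and Cdkn1b, and Rb1. All 10 were found in both deposited tables, 1 of counts in the 1000 bases (1 kb) from the transcription start site (TSS window) and 1 of counts over the whole gene (gene body).

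The cells were taken from cortex and ganglionic eminences of embryos on day E14.5 and grown as neurospheres, which are floating clusters of dividing cells. Differentiating cultures were dissociated neurospheres on a laminin substrate, kept in a medium made for neurons of the cortex, and proliferating cultures were kept as neurospheres. Wild-type (WT) H3K14ac ChIP was done on 3 differentiating and 3 proliferating samples. At each stage there was also 1 library of H3K14ac ChIP from Hbo1 null cells, 1 IgG control and 1 input, which is chromatin sequenced without pull-down. HBO1 is an acetyltransferase of H3 lysine 14. No time after plating, no sex and no source animal is given per library, and the cells of a culture are a mixture, so that fewer marked cells and less mark per cell cannot be told apart.

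In G1, mitogens raise the D cyclins, which bind CDK4 and CDK6 and start the phosphorylation of the retinoblastoma protein RB1. E cyclins with CDK2 complete it, E2F factors are released from RB1, and the genes of DNA replication are switched on. The inhibitors p21 (Cdkn1a) and p27 (Cdkn1b) bind cyclin and CDK complexes, and p27 is known for cell cycle exit of neural progenitors in the developing brain. H3K14ac is found at the starts of active genes, together with other acetylation marks. Its level is not a measurement of transcription, which was not part of these data.

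Promoter sequences are shown for 4 members, because 2 of these genes, Cdkn1a and Ccnd3, have a pair of annotated starts and the TSS window covers only 1 of them, and because Cdkn1b and Cdk4 had the highest mean TSS levels of the set in differentiating cells. The sequences are the 250 bases before each start, 5′ to 3′ on the strand of the gene, from RefSeq on GRCm38.p6. The start that each counted window was laid from is not stated; the inner starts of Cdkn1a and Ccnd3 lie away from the windows, as described after the sequences. Capitals mark matches, on either strand, to the motifs searched, which were the CCAAT box, the GC box (GGGCGG), the E-box (CACGTG), the TATA word TATAAA, the CRE (TGACGTCA), the AP-1 word TGANTCA and 4 words of E2F factors (TTTCCCGC or TTTGGCGC, and also TTTCGCGC or TTTGCCGC). A repeat of CATG after 6 bases was added once the sequences had been seen.

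Cdkn1b, chr6:134920151-134920400, plus strand: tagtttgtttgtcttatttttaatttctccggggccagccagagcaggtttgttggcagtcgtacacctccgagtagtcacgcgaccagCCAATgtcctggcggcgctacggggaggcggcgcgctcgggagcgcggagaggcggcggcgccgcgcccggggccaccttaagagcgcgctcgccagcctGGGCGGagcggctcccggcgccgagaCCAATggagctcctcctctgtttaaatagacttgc

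Cdk4, chr10:127063285-127063534, plus strand: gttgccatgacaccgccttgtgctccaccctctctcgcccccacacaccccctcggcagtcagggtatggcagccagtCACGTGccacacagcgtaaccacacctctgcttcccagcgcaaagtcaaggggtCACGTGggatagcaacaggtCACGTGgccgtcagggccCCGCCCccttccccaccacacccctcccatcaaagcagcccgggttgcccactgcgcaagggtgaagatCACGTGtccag

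Cdkn1a outer start, chr17:29090729-29090978, plus strand: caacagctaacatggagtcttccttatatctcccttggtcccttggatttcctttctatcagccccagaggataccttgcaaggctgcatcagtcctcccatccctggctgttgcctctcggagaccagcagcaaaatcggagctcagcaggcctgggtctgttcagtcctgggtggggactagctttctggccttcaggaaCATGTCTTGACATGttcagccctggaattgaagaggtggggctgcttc

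Cdkn1a inner start, chr17:29093519-29093768, plus strand: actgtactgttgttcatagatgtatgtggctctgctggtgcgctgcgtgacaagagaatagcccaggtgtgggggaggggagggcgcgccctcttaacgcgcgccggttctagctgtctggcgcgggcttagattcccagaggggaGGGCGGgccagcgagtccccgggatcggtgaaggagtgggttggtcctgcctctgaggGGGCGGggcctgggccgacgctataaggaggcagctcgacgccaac

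Ccnd3 outer start, chr17:47504801-47505050, plus strand: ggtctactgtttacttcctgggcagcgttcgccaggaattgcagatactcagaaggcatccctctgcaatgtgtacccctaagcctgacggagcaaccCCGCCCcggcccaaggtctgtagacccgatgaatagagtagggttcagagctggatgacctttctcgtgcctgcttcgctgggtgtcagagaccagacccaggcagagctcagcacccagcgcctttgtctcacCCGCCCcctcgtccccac

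Ccnd3 inner start, chr17:47593217-47593466, plus strand: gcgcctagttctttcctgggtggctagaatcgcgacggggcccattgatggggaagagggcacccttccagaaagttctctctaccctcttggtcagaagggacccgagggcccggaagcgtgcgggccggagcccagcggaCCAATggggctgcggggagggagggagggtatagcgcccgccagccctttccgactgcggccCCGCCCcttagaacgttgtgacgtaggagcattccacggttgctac

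The Cdk4 promoter held 4 E-boxes and 1 GC box. An E-box was found in 6.02% of the 32851 RefSeq promoters searched over the same length. CACGTG is the word read by MYC and MAX and related factors. The Cdkn1b promoter held 2 CCAAT boxes, present in 33.8% of all promoters, and 1 GC box, present in 32.7%. At the outer start of Cdkn1a the CATG word was repeated with 6 bases between, an arrangement known from binding sites of p53, whose target Cdkn1a is, and found in 0.49% of promoters. None of the 8 promoters of members searched held an E2F word (1.86% of all promoters did), a CRE (1.55%) or an AP-1 word (6.75%). Of the other promoters searched, that of Ccne1 held 4 GC boxes, and that of Cdk6 an E-box and TATAAA, which 12.4% of all promoters held. The length of Cdk6 in the tables differs from its RefSeq span by 12091 bases, so that the start used for its window is not known and this promoter may not be that of the counted window. Table and RefSeq lengths also differed for Rb1 (130290 and 133094 bases), Ccnd2 (25341 and 27027) and Ccne2 (13426 and 14347). The starts used for the windows of Rb1, Ccnd2 and Ccne2 are therefore not known either. Smaller differences were found for Ccnd1 (9995 and 9901) and Cdk4 (3681 and 3754), so that their windows may not start at the RefSeq start. A match is a match of letters and was not tested as a binding site.

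The paired starts differed in CpG content. The 250 bases before the outer start of Cdkn1a held 2 CpG dinucleotides, against 19 before the inner start 2790 bases further on; the median over all promoters was 6. For Ccnd3 the outer start had 11 CpG and the inner start, 88416 bases further on, had 19. The gene length given in the tables was equal to that of the outer RefSeq span for Ccnd3 (94639 bases on chromosome 17), so that its window starts at 47505051, far from the inner start at 47593467. For Cdkn1a the length differed from the outer span by 7 bases, so that its window would lie at 29090979 and not at 29093769. The values below are those of the counted windows alone.

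WT gene body totals ran from 12549913 to 17074249 counts in differentiating and from 3992697 to 7611239 in proliferating libraries, and those of the controls from 64071 (null, proliferating) to 12689734 (input, differentiating). Values are given as CPM, the counts scaled to 1e6 gene body counts of the library. The TSS windows held 3.24% to 3.68% of the gene body counts in differentiating and 4.56% to 4.90% in proliferating WT libraries. The corresponding share was 3.23% in differentiating input and 3.36% in proliferating input, so that over all genes the start windows stood less above input in differentiating cells. WT differentiating replicate 3 stood apart in 4 Y-linked genes, at 120 CPM against 3.98 to 22.9 CPM in the other WT libraries. The IgG libraries were at 133 (differentiating) and 120 CPM (proliferating). The inputs were at 3.86 (differentiating) and 3.20 CPM (proliferating), so that the IgG and input controls differed in Y-linked content. The 8 neural stem and progenitor marker windows, summed, stood at 1.45 to 2.30 times the input in differentiating and 2.67 to 4.11 times in proliferating WT libraries, and the 6 neuron marker windows at 0.978 to 1.33 times in differentiating and 1.64 to 1.76 times in proliferating ones. The 3 blood markers were at 0.628 to 0.831 times in differentiating and 0.346 to 0.979 times in proliferating WT libraries, and the marker windows of microglia, endothelium and mesenchyme at 0.541 to 1.46 times over both stages. Oligodendrocyte lineage markers stood at 1.76 to 2.07 times in differentiating and 1.78 to 1.85 times in proliferating WT libraries, with the differentiating IgG library at 2.12 times, and astrocyte markers at 1.39 to 1.89 times in differentiating and 1.13 to 1.64 times in proliferating ones. The part of the mix of cells in the results below was not tested.

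In proliferating cells the windows of Ccnd1, Ccnd2, Cdkn1b and Rb1 stood well above their input, at 3.77 to 8.47 times its level. They stood less far above IgG for Ccnd2, Cdkn1b and Rb1, whose windows each held 1.58 CPM in the proliferating IgG library. The proliferating input held 0.590 CPM for Ccnd2, 0.842 CPM for Cdkn1b and 0.758 CPM for Rb1. In differentiating cells the windows of all 10 members lay between 0.379 and 2.02 times input. Ccnd1 and Ccnd2, the D cyclins of the cell cycle in neural progenitors, carried less H3K14ac in their counted windows in differentiating than in proliferating cells, and no member was called higher. The windows of both inhibitors and of Rb1 also had lower means in differentiating cells, although none of these differences passed the test. The tests were edgeR's quasi-likelihood tests over every gene that averaged 10 or more counts, with p-values adjusted by Benjamini and Hochberg and a threshold of 0.05.

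The window of Ccnd1 held 0.876, 1.17 and 1.41 CPM in the 3 differentiating WT libraries and 4.62, 3.26 and 3.81 CPM in the 3 proliferating ones. All differentiating libraries were thus below all proliferating ones, and the means were 1.15 ± 0.265 CPM in differentiating and 3.90 ± 0.687 CPM in proliferating cells (SD, n = 3 each). The inputs were at 0.709 CPM (differentiating, 95% exact Poisson interval 0.324 to 1.35) and 0.842 CPM (proliferating, 0.404 to 1.55); such intervals cover counting error only. With TMM scaling, which centres the median gene near no change, the window was 0.431-fold as high in differentiating cells, a log2 fold change of −1.22 (SE 0.29, edgeR adjusted p = 0.00425). The call held without each library in turn, with adjusted p between 0.00575 and 0.0418.

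For Ccnd2, a D cyclin known from progenitors of the embryonic cortex, differentiating WT libraries had 1.20, 1.41 and 0.996 CPM and proliferating ones 2.86, 3.01 and 4.99 CPM. The groups did not overlap, and proliferating replicate 3 was the highest. The inputs were at 0.946 CPM (differentiating) and 0.590 CPM (proliferating). The log2 fold change was −1.19 (SE 0.29, edgeR adjusted p = 0.0051). The call was lost without proliferating replicate 3 (log2 fold change −0.82, adjusted p = 0.254) and without differentiating replicate 3 (−0.999, adjusted p = 0.0685).

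Ccnd3, the D cyclin best known from blood cells, was at background in its counted window. The window had 0.558, 1.10 and 0.586 CPM in differentiating and 0.660, 0.250 and 0.394 CPM in proliferating WT libraries, the proliferating values being 3, 1 and 3 reads. The groups overlapped. All proliferating libraries lay below the input of their stage, at 0.270 to 0.713 times its level, and differentiating ones at 0.786 to 1.54 times. The mean count was below 10, so that the stage was not tested, and the inner start of the gene was not counted by the window.

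Of the windows tested for stage over all genes, 4.42% were lower and 2.04% higher in differentiating cells, 1257 of 19477 in all. Among the members 8 were tested, and 2 of them, Ccnd1 and Ccnd2, were lower and none was higher. The other 6 tested members also had negative log2 fold changes, and the median over the 8 was −0.69, against 0.03 over all windows tested. Without TMM, with gene body totals as library sizes, the median over all windows moved to −0.47, 5060 windows were called, of which 64 were higher (397 of 1257 with TMM), and 7 of the 8 members were called lower. The stage calls are therefore given relative to the median gene.

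**Figure D1:**
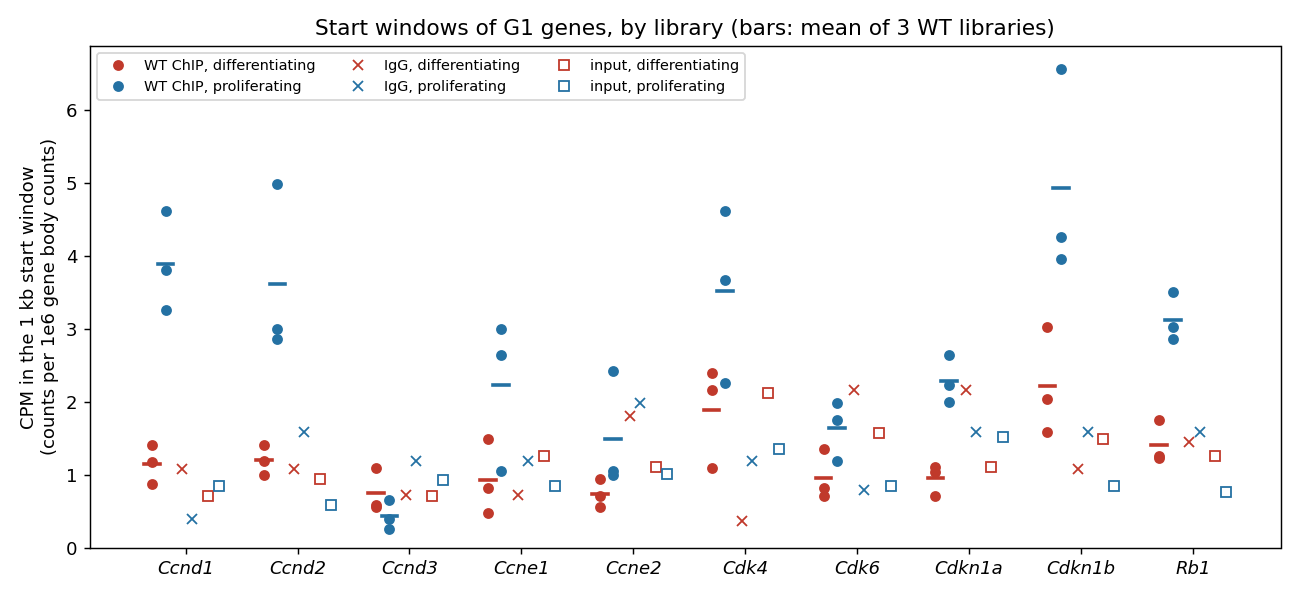
TSS window levels of the 10 members in CPM, with differentiating (red) left of proliferating (blue) libraries; dots are WT libraries, bars their means, crosses IgG and squares input. The proliferating WT dots of Ccnd1, Ccnd2, Cdkn1b and Rb1 stand above the input of their stage and above the differentiating dots, while those of Ccnd3 lie below it.

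The E cyclins, which drive CDK2 at the entry to S phase, were low and variable. Ccne1 had 0.478, 1.49 and 0.820 CPM in differentiating and 2.64, 3.01 and 1.05 CPM in proliferating WT libraries. The groups overlapped, since proliferating replicate 3 fell among the differentiating libraries. Its log2 fold change was −0.61 (SE 0.37, edgeR adjusted p = 0.316). Ccne2 had 0.558, 0.939 and 0.703 CPM in differentiating and 2.42, 1.00 and 1.05 CPM in proliferating WT libraries. The groups did not overlap, but only proliferating replicate 1 stood clear of the input, and the mean count was too low for the stage test. The inputs of Ccne2 were at 1.10 CPM (differentiating) and 1.01 CPM (proliferating).

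Both kinases that pair with D cyclins had overlapping levels. Cdk4 had 2.39, 1.10 and 2.17 CPM in differentiating and 4.62, 2.25 and 3.68 CPM in proliferating WT libraries, with 2.13 CPM in the differentiating and 1.35 CPM in the proliferating input. Its log2 fold change was −0.41 (SE 0.28, 95% interval −0.96 to 0.15, edgeR adjusted p = 0.394). The window of Cdk6, laid from a start that is not known, had 1.35, 0.704 and 0.820 CPM in differentiating and 1.98, 1.75 and 1.18 CPM in proliferating WT libraries, with 1.58 CPM in the differentiating and 0.842 CPM in the proliferating input. Its log2 fold change was −0.22 (SE 0.40, 95% interval −1.003 to 0.568, edgeR adjusted p = 0.782). The intervals leave room for a change in either direction.

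Cdkn1b had the highest mean window level of the set at both stages, with a range that overlapped that of the next gene at each. The 3 differentiating WT libraries had 3.03, 2.03 and 1.58 CPM and the 3 proliferating ones 3.96, 4.26 and 6.57 CPM. The groups did not overlap, and the inputs were at 1.50 CPM (differentiating) and 0.842 CPM (proliferating). The log2 fold change was −0.75 (SE 0.27, edgeR adjusted p = 0.0629) and did not pass the test. It passed without proliferating replicate 1 (−0.93, adjusted p = 0.0308) and without differentiating replicate 1 (−0.94, adjusted p = 0.0403).

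Cdkn1a, the p53 target, had 1.04, 0.704 and 1.11 CPM in differentiating and 2.64, 2.00 and 2.23 CPM in proliferating WT libraries. The groups did not overlap, yet the proliferating input (1.52 CPM) was nearer to the proliferating libraries than for the D cyclins. The log2 fold change was −0.74 (SE 0.35, edgeR adjusted p = 0.179). Rb1 had 1.75, 1.25 and 1.23 CPM in differentiating and 2.86, 3.51 and 3.02 CPM in proliferating WT libraries, again without overlap, and its inputs were at 1.26 CPM (differentiating) and 0.758 CPM (proliferating). The log2 fold change of Rb1 was −0.64 (SE 0.30, edgeR adjusted p = 0.171).

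In CPM, with no TMM, the differentiating WT libraries were all below the proliferating ones for 6 of the 10 members, namely Ccnd1, Ccnd2, Ccne2, Cdkn1a, Cdkn1b and Rb1. The same was true of 33.7% of all windows tested, and the opposite order, found for no member, of 2.51%. Ccne2, among these 6, and Ccnd3 fell below the mean count of 10 that the windows in these shares had. Levels ranked differently at each stage. In differentiating cells the order was Cdkn1b, Cdk4, Rb1, Ccnd2, Ccnd1, Cdk6, Cdkn1a, Ccne1, Ccnd3 and Ccne2, and the ranges of neighbours overlapped in all 9 steps. In proliferating cells the order was Cdkn1b, Ccnd1, Ccnd2, Cdk4, Rb1, Cdkn1a, Ccne1, Cdk6, Ccne2 and Ccnd3. Here 2 of the 9 steps were clear of overlap, that below Rb1 and that above Ccnd3. The highest mean was 3.02 times the lowest in differentiating and 11.3 times in proliferating cells.

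**Figure D2:**
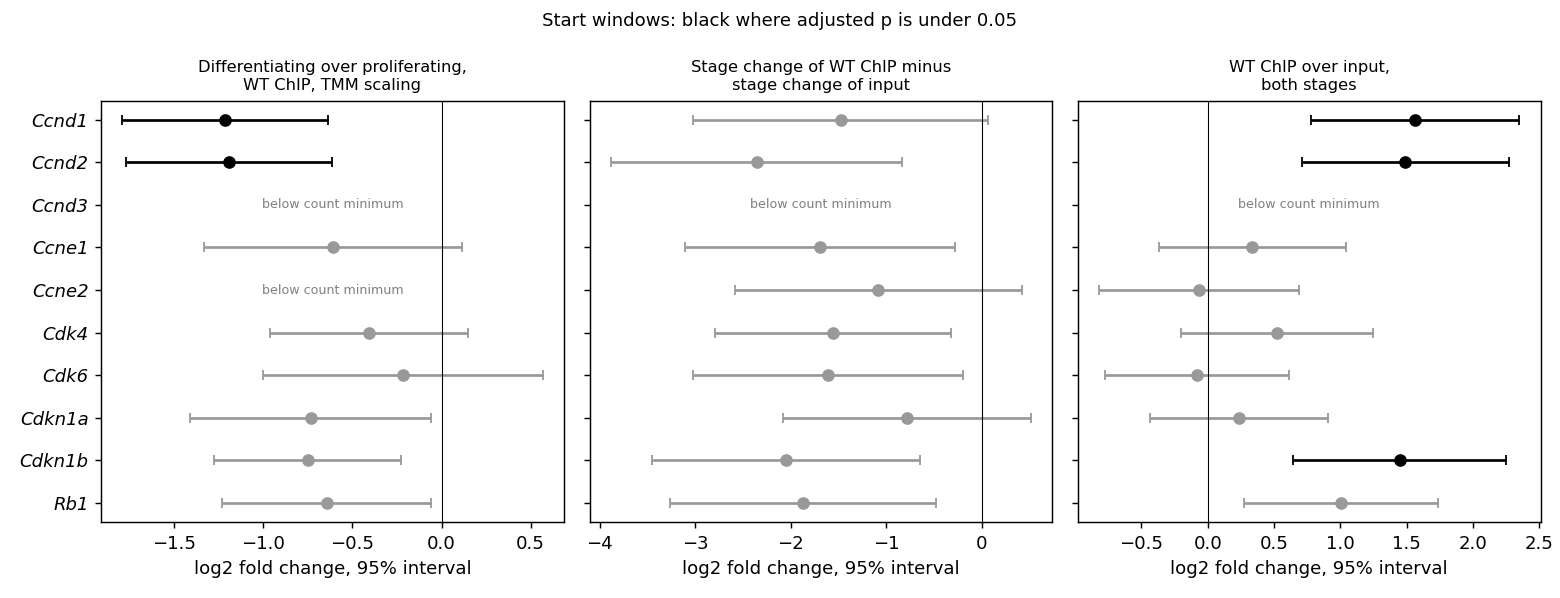
Log2 fold changes of the members' TSS windows with 95% intervals, for differentiating over proliferating WT (left), the stage change of WT ChIP minus that of input (middle), and WT ChIP over input (right); black marks an adjusted p under 0.05 and grey the others. Black are Ccnd1 and Ccnd2 in the stage comparison and Ccnd1, Ccnd2 and Cdkn1b over input, and no member in the middle panel.

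Against input the enriched members were Ccnd1, Ccnd2 and Cdkn1b. The fit joined the 6 WT and both input libraries, with stage as a covariate and scaled by gene body totals, and called 11.6% of 21557 windows higher and 0.881% lower than input. Of the 9 members tested, these 3 were higher and none lower. The log2 fold change of WT over input was 1.56 for Ccnd1 (SE 0.40, edgeR adjusted p = 0.00371), 1.49 for Ccnd2 (SE 0.40, adjusted p = 0.0055) and 1.45 for Cdkn1b (SE 0.41, adjusted p = 0.00912). Rb1 was next at 1.00 (SE 0.37, adjusted p = 0.0539), and passed without WT differentiating replicate 2 (adjusted p = 0.0403). Cdk4 (0.52), Ccne1 (0.34), Cdkn1a (0.24), Ccne2 (−0.07) and Cdk6 (−0.08) had adjusted p of at least 0.374. The median over the 9 members was 0.52, and 0.25 over all windows.

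With stage as a covariate, the fit without 1 input sets WT against input within the stage of the other input alone. Stage and control library cannot be told apart in it. With the differentiating input alone the log2 fold change was 0.72 for Ccnd1, 0.32 for Ccnd2 and 0.54 for Cdkn1b. With the proliferating input alone it was 2.196 for Ccnd1, 2.675 for Ccnd2, 2.587 for Cdkn1b, 2.02 for Rb1 and 1.399 for Cdk4. The joint fit gives no call for each stage on its own. Within the stages, all 3 WT libraries lay above their input for 3 of the 10 members in differentiating cells, which were the same Ccnd1, Ccnd2 and Cdkn1b, at 1.05 to 2.02 times the input. The share of all windows for which this was so was 33.3%. All 3 lay below input for Ccne2 and Cdk6, against 23.3% of all windows. In proliferating cells all 3 lay above for 8 members, against 46.7% of all windows, and all 3 lay below for Ccnd3, against 13.6%. These shares cover windows with a mean count of at least 10, which Ccnd3 did not reach. In the same cells Ccnd2 stood at 4.85 to 8.47 times, Cdkn1b at 4.70 to 7.80 times, Ccnd1 at 3.87 to 5.49 times and Rb1 at 3.77 to 4.63 times the input. Cdk4 at 1.67 to 3.43 times, Ccne1 at 1.25 to 3.57 times, Cdk6 at 1.40 to 2.35 times and Cdkn1a at 1.32 to 1.74 times were nearer to it. Each of these values divides by a single input library, in which Ccnd2 had 7 and Rb1 9 reads at this stage.

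Whether the ChIP changed with stage beyond its input was asked by the interaction of both. All 9 members tested had a negative difference, from −2.36 (Ccnd2, SE 0.78) to −0.78 (Cdkn1a, SE 0.66), with a median of −1.61 against −0.37 over all windows. None was called by edgeR, where 6 had an unadjusted p under 0.05, as did 10.4% of all windows, and the smallest adjusted p was 0.208, nor by DESeq2. Over all genes 0.0278% of windows were called lower and 0% higher. With 1 input per stage, assumed to vary like the WT libraries, this comparison had little resolution for single windows.

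IgG gave no call among the members. Of the 6 with enough counts, Cdk4 was at a log2 fold change of 1.82 (SE 0.66, edgeR adjusted p = 0.071), Ccnd1 at 1.64 (SE 0.66, adjusted p = 0.103) and Cdkn1b at 1.41 (SE 0.57, adjusted p = 0.102) over IgG, and these 3 had an unadjusted p under 0.05, as did 24.7% of all windows tested. Ccnd2 was at 0.85, Rb1 at 0.52 and Cdkn1a at −0.29. DESeq2 called none either, and 5.13% of 13158 windows were called higher and 0.205% lower over all genes. The IgG libraries held 1 to 6 reads per member window, so that their levels, for example 1.08 CPM (differentiating) and 0.396 CPM (proliferating) for Ccnd1, came from 3 reads and 1 read. For Ccnd2, Cdkn1b and Rb1 the proliferating IgG level was 1.58 CPM, from 4 reads each, and lay above the proliferating input. Without the differentiating IgG library, a fit that compares WT with IgG in proliferating cells alone, Ccnd1 was at 3.26. Without WT differentiating replicate 2 Cdk4 was called (1.92, edgeR adjusted p = 0.0415).

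The Hbo1 null libraries were too shallow for single windows. The differentiating null library held 4 reads and the proliferating one 2 reads over all 10 member windows. In CPM these were 12.5 (95% exact Poisson interval 3.40 to 31.9) and 31.2 (3.78 to 113), against 11.4 to 13.2 CPM in differentiating and 24.3 to 29.3 CPM in proliferating WT libraries. The intervals include both the WT and the input levels, so that a loss of the mark in null cells was not detectable at this depth. A single window at 0 reads allows up to 9.36 CPM in the differentiating and 46.8 CPM in the proliferating null library by a limit of 3 counts, or 11.5 CPM (differentiating) and 57.6 CPM (proliferating) by the exact Poisson interval, all above every WT value of a member window.

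**Figure D3:**
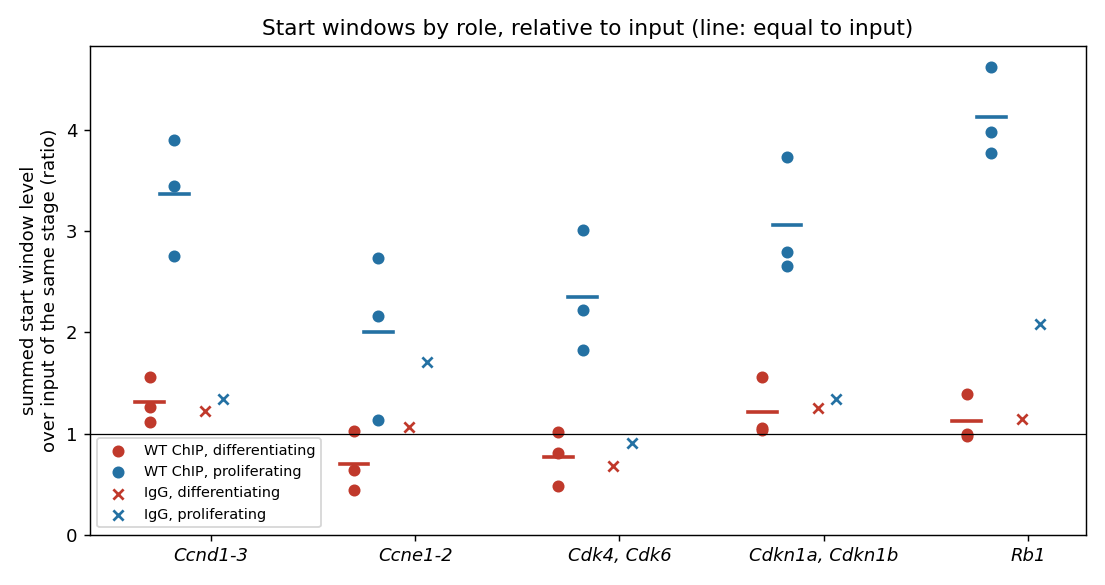
Summed TSS windows of each class of members over the input of the same stage, with differentiating (red) left of proliferating (blue) libraries; dots are WT libraries, bars their means, crosses IgG, and 1 is the input level. All classes of the proliferating WT libraries lie above 1, and the classes of the differentiating WT libraries scatter around it.

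Summed by role, the windows of all members together stood at 1.08, 0.967 and 0.929 times the input in the differentiating and at 3.08, 2.55 and 2.94 times in the proliferating WT libraries. The D cyclins stood at 1.11 to 1.56 times in differentiating and 2.76 to 3.90 times in proliferating cells, and the CDK inhibitors at 1.04 to 1.56 times in differentiating and 2.65 to 3.73 times in proliferating cells. E cyclins were at 0.438 to 1.03 times in differentiating and 1.13 to 2.73 times in proliferating cells, the kinases at 0.486 to 1.01 times in differentiating and 1.83 to 3.02 times in proliferating cells. The input itself moved: the members summed to 12.3 CPM in the differentiating and 9.52 CPM in the proliferating input, and to 12.6 CPM in the differentiating and 13.1 CPM in the proliferating IgG library. The part of these shifts in the values over input was not tested.

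The ratio of window reads of the promoting to those of the restraining genes did not separate the stages. Cyclins and kinases together had 1.27, 1.98 and 1.91 times the reads of the inhibitors and Rb1 together in differentiating WT libraries, and 2.09, 1.49 and 1.37 times in proliferating ones. These ranges overlap, and the inputs, at 2.18 times (differentiating) and 2.05 times (proliferating), and the IgG libraries, at 1.69 times (differentiating) and 1.75 times (proliferating), were of the same order. The groups differ in number of windows, 7 against 3, so that the value has no meaning as a level and only its comparison between libraries does. In differentiating WT libraries the cyclins and kinases summed to 0.879 to 0.937 times input, and the inhibitors and Rb1 to 1.02 to 1.51 times. With sums so near input, background reads can set much of the ratio, and a balance of the mark cannot be read from it.

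Over gene bodies, whose counts include the window, only Ccnd1 was called by stage. Its body held 8.77, 9.15 and 9.02 CPM in differentiating and 18.5, 13.3 and 18.1 CPM in proliferating WT libraries, with no overlap. The inputs were at 10.4 CPM (differentiating) and 11.9 CPM (proliferating). The log2 fold change was −0.87 (SE 0.13, edgeR adjusted p = 0.0402), where 0.126% of 24564 gene bodies were called lower and 0.0366% higher. The call was lost with the window reads taken out of the body (−0.74, adjusted p = 0.223, a choice made after the data were seen) and without each library in turn (adjusted p between 0.0571 and 0.387).

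The bodies of both inhibitors had differences of nearly that size that did not pass the test. Cdkn1a had 7.73, 6.18 and 8.20 CPM in differentiating and 14.3, 9.02 and 14.3 CPM in proliferating WT libraries (log2 fold change −0.75, SE 0.18, edgeR adjusted p = 0.163). Cdkn1b had 6.69, 6.81 and 5.97 CPM in differentiating and 8.81, 10.0 and 13.8 CPM in proliferating WT libraries (−0.75, SE 0.18, edgeR adjusted p = 0.169). With Ccnd1 and Ccnd2 these were the 4 members whose differentiating libraries all lay below the proliferating ones, an order found for 10.8% of all gene bodies tested, with the opposite one in 6.55%. The longest members had values near no change. The body of Cdk6, of 177.9 kb, averaged 178 ± 0.336 CPM in differentiating and 187 ± 9.68 CPM in proliferating WT libraries, and that of Rb1, of 130.3 kb, 130 ± 7.75 CPM in differentiating and 126 ± 17.5 CPM in proliferating ones (SD, n = 3 each). Their log2 fold changes were −0.04 (95% interval −0.16 to 0.09) for Cdk6 and 0.08 (−0.17 to 0.34) for Rb1. Over the whole body, a change of the size seen for Ccnd1 is outside both intervals. The window is a far smaller part of these bodies. In WT proliferating replicate 2 it held 24.5% of the body reads for Ccnd1, 0.986% for Cdk6 and 2.48% for Rb1. A change confined to the window would hardly show in the bodies of Cdk6 and Rb1, so these values cannot decide whether their windows changed.

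**Figure D4:**
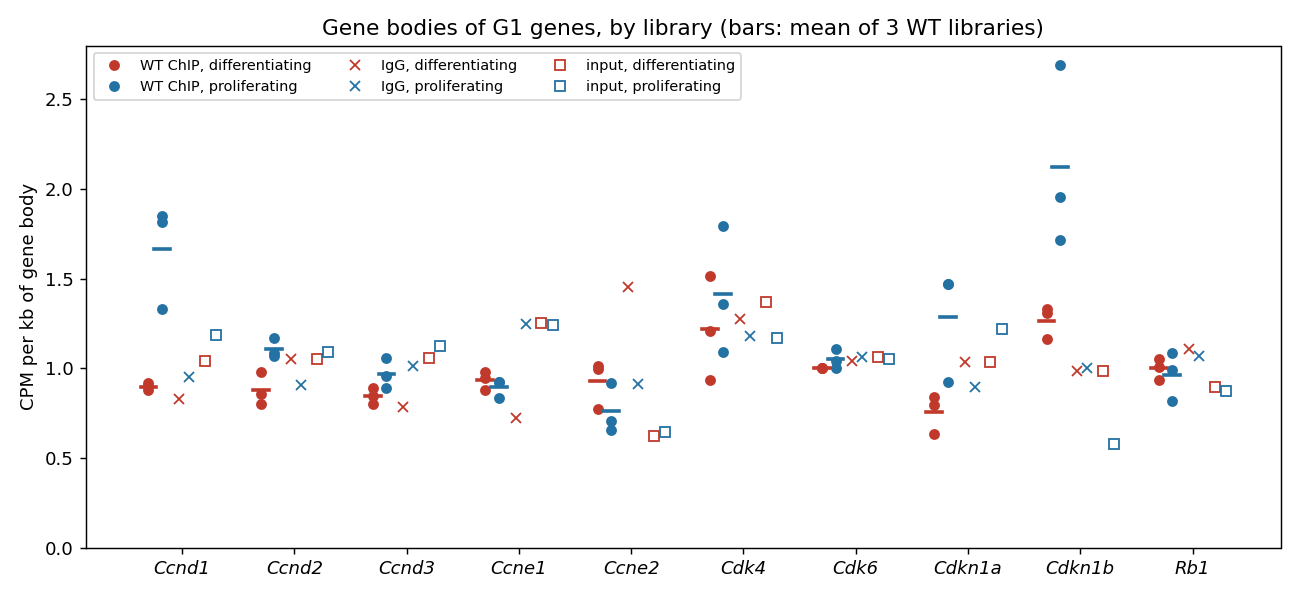
Gene body levels of the members in CPM per kb of gene, with differentiating (red) left of proliferating (blue) libraries; dots are WT libraries, bars their means, crosses IgG and squares input. Ccnd1, Ccnd2, Cdkn1a and Cdkn1b show the proliferating dots above the differentiating ones, while Cdk6 and Rb1 lie close to 1 in all libraries.

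Against input, gene bodies gave 4 calls among the 10 members, 2 in each direction, where 8.43% of 24848 bodies were called higher and 21.3% lower. Cdkn1b was higher over its body, with a log2 fold change of 1.04 (SE 0.29, edgeR adjusted p = 0.0201). Its body had only 0.575 CPM per kb in the proliferating input, against 0.984 in the differentiating one. Without the proliferating input, which leaves the comparison to differentiating cells, the change was 0.36. Ccne2 was higher by 0.44 with an edgeR adjusted p of 0.0499, and was no longer called under DESeq2 (adjusted p = 0.0745). The call was also lost without proliferating replicate 2 (0.0512) or 3 (0.121), or differentiating replicate 2 (0.0968) or 3 (0.0656). In proliferating cells alone, without the differentiating input, its change was 0.27. Ccne1 was lower by a log2 fold change of −0.44 (edgeR adjusted p = 0.00862) and Ccnd3 of −0.27 (adjusted p = 0.0179). The calls of Ccne1 and Ccnd3 were lost without either input, in fits that compare WT with input in a single stage. That of Ccnd3 was also lost with TMM (adjusted p = 0.103). Over IgG no gene body of a member was called by edgeR, with fold changes of −0.47 to 0.74 on the log2 scale, 3 with an unadjusted p under 0.05, against 17.3% of all bodies, and a smallest adjusted p of 0.211; 0.54% of 23685 bodies were called higher and 0.739% lower.

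The density of reads in the window relative to the body, per kb, sets each gene against itself within a library. For Rb1 it was 1.17 to 1.87 in differentiating and 3.05 to 3.49 in proliferating WT libraries. The differentiating input had 1.40 for this gene and the proliferating input 0.870. For Ccnd2 it was 1.16 to 1.75 in differentiating and 2.68 to 4.28 in proliferating WT libraries. For Ccnd1 it was 1.00 to 1.56 in differentiating and 2.10 to 2.50 in proliferating WT libraries. None of these 3 overlapped between stages, and neither did Cdk4 (1.17 to 1.79 in differentiating, 2.07 to 2.71 in proliferating cells), Cdkn1a (1.11 to 1.32 in differentiating, 1.52 to 2.16 in proliferating cells) or Ccne2 (0.704 to 0.926 in differentiating, 1.14 to 3.69 in proliferating cells). Of the 8 members with the mean window count of 10 that this needs over all genes, 5 thus were lower in all differentiating libraries and 0 higher, against 33.9% lower and 1.83% higher of 18255 genes. Ccne1 and Cdk6 overlapped, and so did Cdkn1b (1.36 to 2.32 in differentiating, 2.18 to 2.44 in proliferating cells), and its body is only 5.125 kb long. Ccnd3 was the only member below 1 in all proliferating WT libraries (0.282 to 0.624), and was higher in all differentiating ones, at 0.626 to 1.30. The controls reached the WT ranges of some members. For Cdkn1a IgG had 2.09 (differentiating) and 1.77 (proliferating), and input 1.06 (differentiating) and 1.24 (proliferating). For Ccne2 input had 1.77 (differentiating) and 1.56 (proliferating), and IgG 1.24 (differentiating) and 2.17 (proliferating). All of these densities are descriptions, with no test.

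Of 31 other genes of the G1 to S pathway, 29 were tested by stage, 3 of these were lower in differentiating cells and none was higher, with a median log2 fold change of −0.37. Over all windows 4.42% were lower and 2.04% higher, with a median of 0.03. E2f3, an activator among the E2F factors, had 0.876, 0.548 and 1.05 CPM in differentiating and 3.52, 5.26 and 3.28 CPM in proliferating WT libraries (log2 fold change −1.67, SE 0.31, edgeR adjusted p = 9.26e-05). Ccna2, the cyclin A of S phase, was lower by a log2 fold change of −1.33 (SE 0.30, edgeR adjusted p = 0.00209), and E2f2, another activator E2F, of −1.02 (SE 0.29, adjusted p = 0.0171). Their windows did not overlap between stages: E2f2 had 0.939 to 1.51 CPM in differentiating and 2.50 to 4.40 CPM in proliferating WT libraries, and Ccna2 0.820 to 1.20 CPM in differentiating and 3.01 to 4.07 CPM in proliferating ones. The E2f3 call held without each library in turn; that of Ccna2 was lost without proliferating replicate 3 (adjusted p = 0.0719), and that of E2f2 without proliferating replicate 1 (0.0502), proliferating replicate 3 (0.161) or differentiating replicate 2 (0.0944). Against input 1 of 30 tested was higher, a smaller share than the 11.6% over all windows. It was Mdm2, the ubiquitin ligase of p53, higher by a log2 fold change of 1.15 (SE 0.39, edgeR adjusted p = 0.0317). The call of Mdm2 was lost with TMM (adjusted p = 0.0772) and without proliferating replicate 3 (0.0734) or differentiating replicate 1 (0.0959). It was also lost without the proliferating input, in a fit that compares differentiating cells alone.

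The genes whose windows varied most like that of Cdkn1b, the member with the highest mean WT level (3.57 CPM), were Spry2 (Pearson r = 0.931), Chaserr (0.892) and Tnrc18 (0.886) over the 10 WT, input and IgG libraries. Only 66 genes had the mean count of 30 needed for this comparison. Cdkn1b itself lay below it, with a mean of 25.6 counts over WT and input and 22.9 over WT and IgG libraries. All windows follow the depth and stage of the same libraries, so that r is given as a description.

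In RefSeq on GRCm38 (mm10), Ccnd1 lies at chr7:144929931-144939831, Ccnd2 at chr6:127125162-127152188, Cdkn1b at chr6:134920401-134925525 and Rb1 at chr14:73192858-73325951. Several members share sequence with another annotated gene. Ccnd1 overlaps LTO1, Ccnd2 a long non-coding RNA (9330179D12Rik), Ccnd3 Bysl, Ccne2 Ints8, Cdk4 Tspan31, and Rb1 encloses Lpar6 and Mir687. How reads in shared sequence were assigned is not stated in the sources used here, so the gene body values of these members carry that uncertainty. It is small where the shared stretch is short. Cdk4 ends at 127067288 and Tspan31 starts at 127067287, and Ccnd3 ends at 47599689 and Bysl starts at 47599331. Long non-coding RNAs that were not among the genes counted also overlap Ccnd3 (Gm41590), Cdk6 (Gm36470 and Gm29868) and Ccne2 (A630034I12Rik). A630034I12Rik reaches to 11191230, and the RefSeq span of Ccne2 begins at 11190433. For Ccnd2, which is read from the minus strand, the shared stretch from 127149389 on holds the RefSeq start of the gene. A TSS window laid from that start lies within the span of the non-coding RNA as well.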

How the data were processed

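Per the submitters' processing notes, reads were converted with bcl2fastq and counted with featureCounts on mm10; the aligner and versions are not given in the sources used here. The authors deposited raw counts per gene, in windows of 1000 bases from the start and over gene bodies, and the 24 files per sample equalled the columns of the tables. Of 27095 gene IDs, 25204 matched a RefSeq symbol. The labels name the anti-H3K14ac antibody for every library, and IgG and input were taken from the titles. No label says that replicates came from separate cultures, so p-values measure only how libraries vary, in part perhaps for technical reasons. Replicates differed beyond sampling noise (chi-square per gene 1.47 to 5.92). In the Y-linked genes WT differentiating replicate 3 stood at 120 CPM, against 3.98 and 5.55 CPM in replicates 1 and 2. Technical repeats of 1 pool of cells would not differ in this way. For the other libraries the source stays unknown.

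Computed here were CPM (counts scaled to 1e6 gene body counts), exact Poisson intervals, and edgeR 4.0.16 quasi-likelihood tests in R 4.3.3 (mean count of at least 10, two-sided, Benjamini-Hochberg over all genes tested, threshold 0.05), with TMM for stage and gene body totals for controls. DESeq2 1.42.0, other scalings, no filter and leaving out libraries were alternatives. Fits were tested on simulated data, with larger changes and higher counts than most member windows had. That test therefore gives no measure of how well changes in these windows would be found. Deviations of same-numbered libraries correlated at 0.0927, 0.189 and −0.116, so numbers were not taken as pairs. Comparisons share the WT libraries. Named by rule were all members, pathway genes past the threshold by stage or over input (at most 6 each), and 3 genes most like the highest member. Members and lists were chosen with earlier results of these data known.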

Additional observations from a re-analysis of the deposited data

Results flagged for a closer look

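The E2f3 TSS window changed with stage differently in the WT ChIP and in the input. Its level was 0.876, 0.548 and 1.05 CPM in differentiating and 3.52, 5.26 and 3.28 CPM in proliferating WT libraries, against 1.65 CPM in the differentiating and 0.927 CPM in the proliferating input. The difference of the stage changes was −3.009 on the log2 scale (SE 0.66, edgeR adjusted p = 0.04), 1 of 6 windows called among 21557. It was not called with TMM scaling (adjusted p = 0.205), with no filter on low counts (0.0725), under DESeq2, or without any 1 of 5 of the 6 WT libraries (0.0617 to 0.104); the call held without differentiating replicate 1 (0.0161). Each input is a single library.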

How the results depend on the processing

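By stage, the TSS windows of the 8 tested members had a negative log2 fold change in each fit that gave an adjusted p; DESeq2 gave none for Ccne1, Cdk6, Cdkn1a and Rb1, and Cdk6 had no value without differentiating replicate 1. Members called numbered 7 with gene body totals in place of TMM, which called 5060 windows in all (64 higher), and 2 under DESeq2 size factors, no filter, DESeq2 and the replicate block; over all genes DESeq2 called 588 (19 higher) and the replicate block, with the replicate number as a covariate, 761. Under the block 0 member bodies were called (Ccnd1 adjusted p = 0.0584), and it changed no other call of a member; the numbers were not taken as pairs, and not every library correlated best with its own number. Without 1 library at a time, 1 to 3 members and 319 to 1246 windows were called by stage (fewest without proliferating replicate 3), and 0 members and 3 to 66 gene bodies, where Rb1 ran from −0.0383 to 0.185.

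DESeq2 called 182 bodies by stage. Bodies without their window gave 7 calls, 0 of them members; Cdk4 was then reversed at 0.648, and over input at −0.463, as was Ccnd1 at −0.0465. TMM reversed the window of Cdkn1a over input (−0.0695), the body of Cdk6 over input (0.0668) and the window of Rb1 over IgG (−0.112), and gave 53 IgG windows; DESeq2 gave 371, and 491 IgG bodies. The stage change beyond input gave 0 calls with TMM, with no filter and under DESeq2, and 0 to 65 without 1 library (65 without differentiating replicate 1). The cause of these shifts was not tested.

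Without 1 library at a time, 0 to 5 members and 25 to 3990 windows were called over input, the lowest without the proliferating and the highest without the differentiating input. Log2 fold changes ran from −0.448 to 1.245 for Ccne1, from −0.0236 to 0.0208 for Ccne2 in the 3 of 8 fits where it reached the count minimum, from −0.162 to 1.399 for Cdk4, from −0.73 to 0.878 for Cdk6 and from −0.192 to 0.592 for Cdkn1a. For bodies over input, 0 to 5 members and 0 to 10231 genes were called, and Ccnd1 ran from −0.212 to 0.505, Ccnd2 from −0.259 to 0.0292, Cdk4 from −0.168 to 0.277 and Cdkn1a from −0.445 to 0.109. Over IgG, 0 to 1 member windows and 5 to 1035 in all were called, Cdkn1a ran from −1.15 to 0.53 and Rb1 from −0.0471 to 0.964, and 74 to 701 bodies were called, 0 of members.

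Depth limited single windows: those of the members held 1 to 50 reads in WT libraries, and each control is a single library per stage. Leaving out 1 control therefore assumes the other to vary like the WT libraries. It also leaves ChIP and control compared in the stage of the other alone, so that such fits mix stage with choice of control.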
